A study of Arabidopsis thaliana with 6 samples.

Results

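Salt stress is met in Arabidopsis by a small set of well-known sodium and potassium transport genes, and 8 of them were examined here for binding of the chromatin protein DEK3. They were listed by locus, as SOS1 (AT2G01980), SOS2 (AT5G35410), SOS3 (AT5G24270), HKT1 (AT4G10310), NHX1 (AT5G27150), NHX2 (AT3G05030), AVP1 (AT1G15690) and AKT1 (AT2G26650), and they are 8 of 27432 protein-coding nuclear genes. A gene was counted as having a peak when at least 1 bp of a peak lay in its annotated span or within 1 kb of it. In the gene table used for names, AKT1 carries the symbol KT1.

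The data are chromatin immunoprecipitation sequencing (ChIP-seq) of DEK3 fused to cyan fluorescent protein (CFP) in seedlings of the ecotype Col-0, pulled down with a GFP antibody. The tissue is named only as seedling, so the cells in which these genes act were not separated. The plants were AtDEK3 overexpressors of 3 independent lines, OE3-1, OE9-1 and OE17-4, with 1 library each, kept on soil for 14 days with 16 h of light and 8 h of darkness. All lines thus carry tagged DEK3 on top of the native gene, the promoter of the transgene is not given in the sources used here, and no salt treatment is named in the labels. The matching input libraries were not analysed here, so each peak is the authors' call and no enrichment over input was computed.

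Sodium that enters root cells is harmful in the cytosol, and plants handle it by export, by storage in the vacuole and by keeping potassium up. In the SOS pathway, the calcium sensor SOS3 activates the kinase SOS2, which in turn activates the plasma membrane Na+/H+ exchanger SOS1. HKT1 retrieves sodium from the xylem, NHX1 and NHX2 carry sodium and potassium into the vacuole in exchange for protons, AVP1 is a proton pump of the vacuole driven by pyrophosphate, and AKT1 is the main inward potassium channel of the root. The study is known to have examined how plants with altered DEK3 levels respond to high salt, which is the reason these genes are of interest here.

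Some facts of the peak lists bear on every value below. The lists held 5332 peaks in OE3-1, 3733 in OE9-1 and 3426 in OE17-4, with 1235876, 814853 and 549029 reads inside peaks, and the depth of the libraries is unknown. The OE3-1 list as analysed here held no peak that starts below position 1051625 on any of the 5 chromosomes, where OE9-1 had 180 peaks and OE17-4 had 175. SOS1 lies in that part of chromosome 2, so its lack of an OE3-1 peak cannot be told apart from that gap in the list, and the other 7 genes lie above it. The authors also gave a false discovery rate (FDR) per peak, in percent, and a lower FDR is read here as a stronger call.

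DEK3 peaks were found at 3 of the 8 genes, SOS1, HKT1 and AKT1, and not at SOS2, SOS3, NHX1, NHX2 or AVP1. All 3 peaks lay inside the gene span, each came from a single line, and no gene had a peak in 2 lines. OE3-1 had peaks at 2 of 8 genes, HKT1 and AKT1, OE17-4 at 1 of 8, SOS1, and OE9-1 at 0 of 8. Among all protein-coding genes, the share with a peak counted in the same way was 22.5% for OE3-1, 13.9% for OE17-4 and 12.2% for OE9-1, and 41% had a peak in any line against 3 of 8 here, or 37.5%. In at least 2 lines the share of all genes was 7.2%. The count at these 8 genes was thus near the background, and with 1 group of 3 lines the design holds no test of it. Without OE3-1 the count was 1 of 8, SOS1 alone, and 24.5% of all genes had a peak in the other lines. Of the 7 genes above position 1051625, 2 had an OE3-1 peak and the same 2 a peak in any line, against 23.8% and 41.9% of all genes above it.

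**Figure D1:**
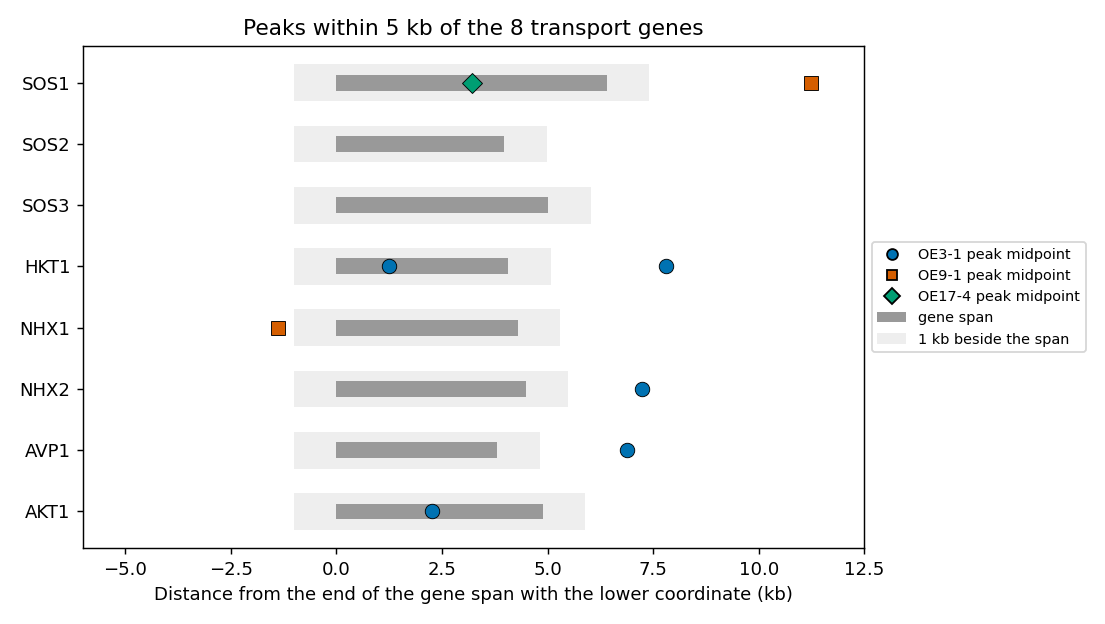
Peak midpoints of the 3 lines within 5 kb of the 8 genes, as distance in kb from the end of the gene span with the lower coordinate; dark bars are gene spans and pale bars the 1 kb beside them. Peaks lie on the spans of SOS1, HKT1 and AKT1 alone, 1 each, and SOS2 and SOS3 have no peak of any line within 5 kb.

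These are long genes, and long genes more often hold a peak. The 8 spans measured from 3808 bp in AVP1 to 6407 bp in SOS1, with a median of 4390.5 bp, against 2078 bp for all protein-coding genes. Of the 3082 genes in that length range, 58.9% had a peak in any line, with OE3-1 at 38.3%, OE17-4 at 19.2% and OE9-1 at 17.1%, and 14.8% had one in at least 2 lines, against 0 of the 8. Above position 1051625 the shares were 40.1% in OE3-1 and 60.2% in any line. The 37.5% with a peak among the 8 genes lay below the 58.9% of genes of like length, and the design holds no test of that difference.

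**Figure D2:**
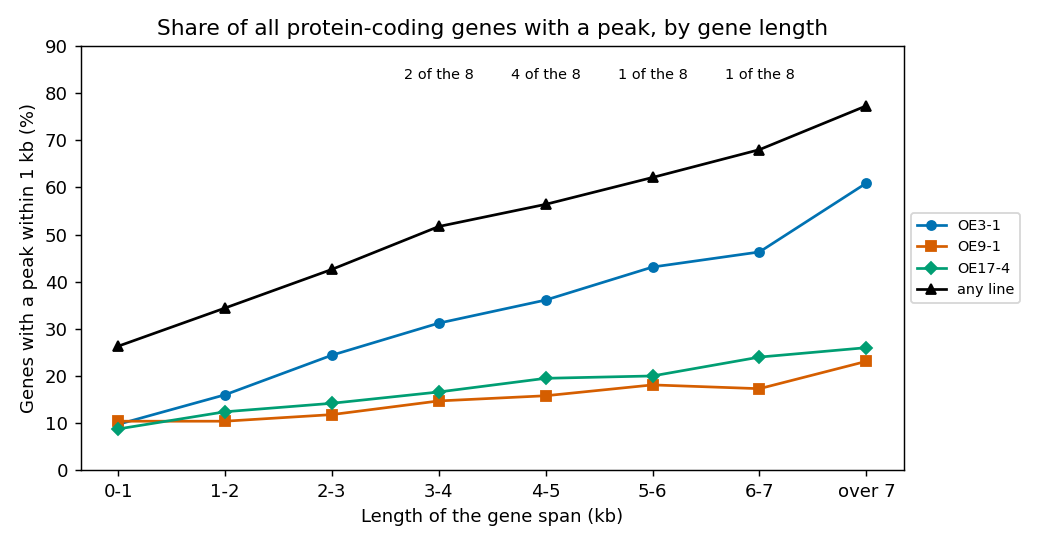
Percent of all protein-coding genes with a peak within 1 kb, by length of the gene span in kb, for each line and for any line; the labels along the top count how many of the 8 genes fall in each length class. The share in any line climbs from 26.3% of genes up to 1 kb to 77.3% of genes over 7 kb.

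SOS1, the exporter that pumps sodium out of the cell, had its peak in OE17-4 on chromosome 2 at 460109 to 460291, in the authors' TAIR10 coordinates. The peak was 183 bp long and held 99 reads, with an FDR of 3.45% and an authors' Wilcoxon filter p of 2.69e-05. Its midpoint lay 3198 bp from one end of the 6407 bp span and 3208 bp from the other, so it was almost exactly central, and 98.9% of the OE17-4 midpoints in genes lay closer to a gene end. By its call it was among the weaker peaks of its list. In OE17-4, 84.9% of peaks had a lower FDR, 13.6% had fewer reads, and 86.3% were shorter, so that the 0.541 reads per bp exceeded those of 7.94% of the list. On the strands it had 60 forward and 39 reverse reads, a forward share of 60.6% (exact 95% Clopper-Pearson interval 50.3 to 70.3%), which did not pass the test once adjusted over the list (exact binomial test, 2-sided, adjusted p = 0.461). In OE9-1 the nearest peak to SOS1 lay 4794 bp away at 468202 to 468280, with 273 reads, and 1 gene stood between.

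HKT1, the sodium transporter that unloads the xylem, had its peak in OE3-1 on chromosome 4 at 6393073 to 6393111. The peak was 38 bp long, about the length of a 36 bp read, and held 208 reads at an FDR of 2.78% and a Wilcoxon filter p of 0.00136. Its midpoint lay 1238 bp inside the nearer end of the 4069 bp span, at 30.4% of the span counted from the lower coordinate. The reads were unequal between strands, with 78 forward and 130 reverse reads and a forward share of 37.5% (exact interval 30.9 to 44.5%; exact binomial test, 2-sided, adjusted p = 0.00271). Such imbalance was common in that line, where 31.3% of peaks passed the same test, against 13.2% in OE9-1 and 0.234% in OE17-4. These shares are not like for like, because the lists differ in reads and filtering. In OE3-1, OE9-1 and OE17-4 the median peak held 210, 202 and 136 reads. The highest Wilcoxon filter p was 0.1, 0.1 and 0.000888 in the same order. A further OE3-1 peak lay 3688 bp beyond the gene at 6399610 to 6399707, with 194 reads, in a row that the authors assigned to AT4G10320. The nearest OE9-1 and OE17-4 peaks were far off, at 29369 bp and 43475 bp.

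AKT1, the inward potassium channel of the root, had its peak in OE3-1 on chromosome 2 at 11334095 to 11334124. The peak was 29 bp long, which is shorter than a 36 bp read, and held 175 reads at an FDR of 2.67% and a Wilcoxon filter p of 0.02. In OE3-1, 13.1% of peaks were shorter than a read. Its midpoint lay 2259.5 bp from the nearer end of the 4889 bp span, at 46.2% of the span, and 93.5% of the OE3-1 midpoints in genes lay closer to a gene end. The 98 forward and 77 reverse reads gave a forward share of 56.0% (exact interval 48.3 to 63.5%), which did not pass the test (exact binomial test, 2-sided, adjusted p = 0.254). An OE9-1 peak lay 5735 bp away and an OE17-4 peak 11296 bp away.

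All 3 peaks lay over 1 kb inside the gene, the HKT1 peak less deep than the others. For it, 75.2% of the OE3-1 midpoints in genes were closer to a gene end. Depth in bp is limited by gene length, and these genes are long. SOS1, AKT1 and HKT1 were longer than 97.5%, 93.6% and 88.7% of protein-coding genes. The 3 peaks also shared a modest rank in their lists by FDR and reads. Each had an FDR above its list's median, which was 2.35% in OE3-1 and 1.08% in OE17-4, and none had more reads than its list's median of 210 or 136. Their shapes differed by line. The OE3-1 peaks at HKT1 and AKT1 were short and dense, at 5.47 and 6.03 reads per bp, while the OE17-4 peak at SOS1 was long and thin. Within OE3-1 itself the HKT1 and AKT1 peaks exceeded 79.8% and 84.7% of peaks in reads per bp. Only 15.7% and 5.65% of that list were shorter. Lists differ in these measures as a whole, with a median length of 61 bp in OE3-1 and 137 bp in OE17-4. Since no peak was in the stronger 50% of its list by FDR, no gene of the 8 kept a peak when the lists were limited to it, against 23.8% of all protein-coding genes. Whether a peak lies in an exon, an intron or an untranslated region is not known here, since the gene table holds no exons or strand.

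**Figure D3:**
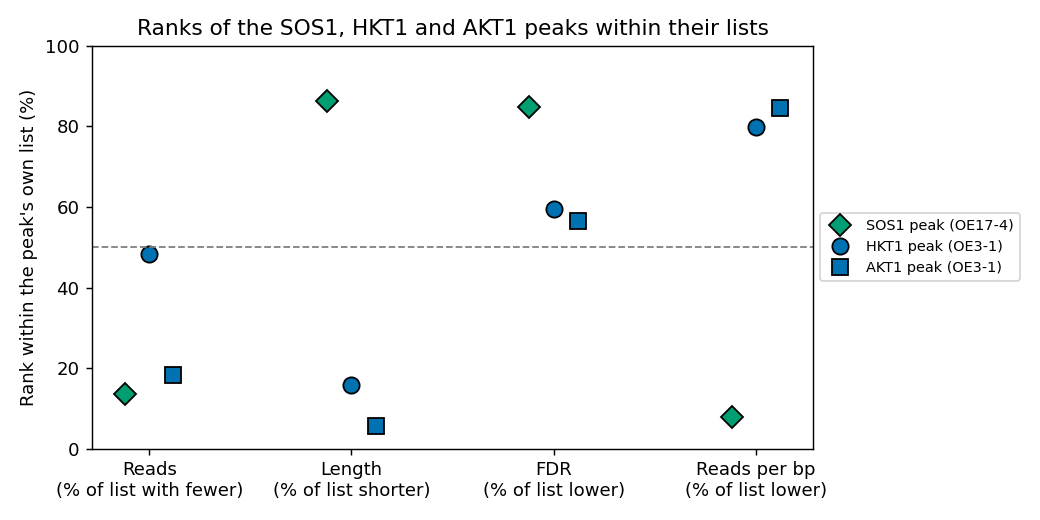
Rank of the SOS1, HKT1 and AKT1 peaks within their own lists, as the percent of peaks of that list with fewer reads, a shorter length, a lower FDR or fewer reads per bp; the dashed line marks 50%. All 3 lie above the line for FDR, at 56.5 to 84.9%, and below it for reads, at 13.6 to 48.4%.

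Counting the nearest peak of any line, NHX1, NHX2 and AVP1 came next in distance, an order that did not hold in each single line. NHX1 had an OE9-1 peak 1340 bp outside its span on chromosome 5, at 9551864 to 9551960, with 113 reads and an FDR of 4.24%. The authors assigned it to the neighbour AT5G27140, and it is the one peak that a window of 2 kb would add. At 2 kb the count was 4 of 8 in any line and 1 of 8 in OE9-1, against 52.9% and 17.8% of all protein-coding genes. NHX2 had an OE3-1 peak 2700 bp beyond its span on chromosome 3, at 1400327 to 1400413, with 138 reads and an FDR of 4.5%. That row names NHX2 in the authors' gene column, although 3 annotated genes of any type lay wholly between the peak and NHX2. By the authors' gene column the count was therefore 4 of 8, with NHX2 added, against 31.7% of all genes. AVP1 had an OE3-1 peak 3025 bp beyond its span on chromosome 1, at 5405758 to 5405875, with 163 reads and an FDR of 1.6%, and no gene stood wholly between.

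By the nearest peak of any line, the signalling genes SOS2 and SOS3 of the SOS pathway lay farthest. In single lines others lay farther, SOS1 in OE3-1, AVP1 and NHX2 in OE9-1, and NHX1, AVP1 and HKT1 in OE17-4. The SOS1 distance spans the part of chromosome 2 where the OE3-1 list has no peak. For the kinase gene SOS2 the nearest peaks were 26469 bp away in OE3-1, 20398 bp away in OE9-1 and 17445 bp away in OE17-4. For the calcium sensor gene SOS3 they were 24403 bp away in OE3-1, 37389 bp away in OE9-1 and 10951 bp away in OE17-4. All 6 distances exceeded the medians over all protein-coding genes, which were 5896, 10005 and 9866 bp in the same order of lines. SOS2 sat in a peak-free stretch of 67.3 kb in OE3-1, which held 3 protein-coding genes. SOS3 sat in one of 77.2 kb in OE3-1 and one of 100.9 kb in OE9-1, with 13 and 20 protein-coding genes. Longer stretches held SOS1 in OE3-1, at 1053.0 kb with 252 genes, and NHX1 in OE17-4, at 227.5 kb with 55 genes. The first is the gap at the start of chromosome 2, and the second is the 11th longest of the OE17-4 list. Another held NHX2 in OE9-1, at 137.2 kb with 36 genes. Others held AVP1 in OE9-1, at 119.9 kb with 41 genes, and HKT1 in OE17-4, at 104.7 kb with 25 genes.

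**Figure D4:**
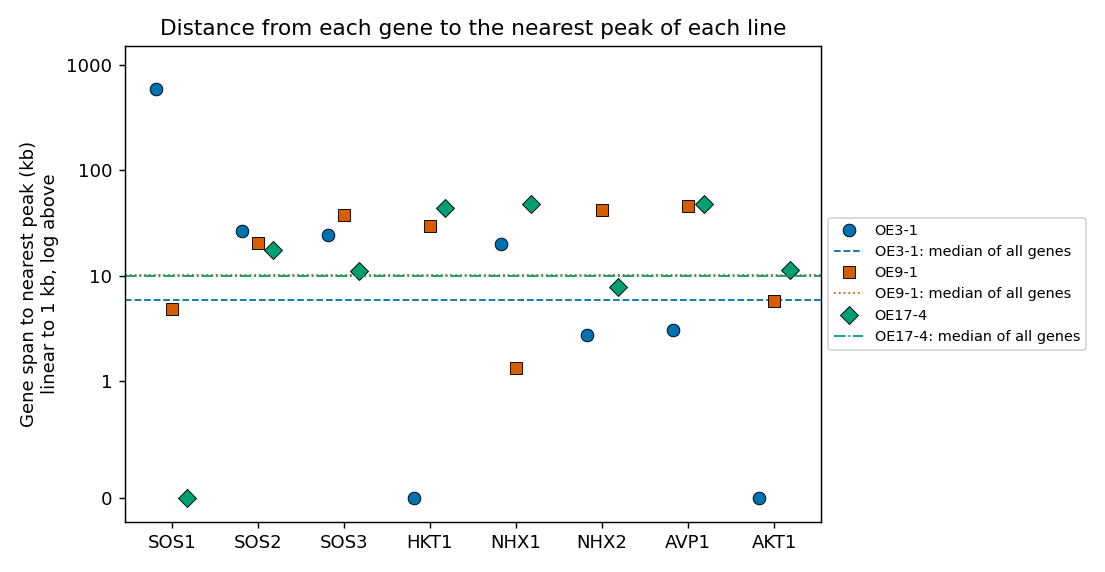
Distance in kb from each gene span to the nearest peak of each line, on an axis that is linear up to 1 kb and logarithmic above; horizontal lines mark the median over all protein-coding genes for each line. SOS1 in OE17-4 and HKT1 and AKT1 in OE3-1 are at 0, and SOS2 and SOS3 lie above the medians in all 3 lines; the SOS1 distance in OE3-1 spans the part of chromosome 2 where that list has no peak.

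Over all lines together, the median distance to the nearest peak was 2020 bp for the 8 genes and 1728 bp for all protein-coding genes. In single lines the medians for the 8 genes were 11543 bp for OE3-1, 24883 bp for OE9-1 and 14370 bp for OE17-4. The OE3-1 median includes SOS1, at 589615 bp. Within 25 kb of the genes, the number of peaks ran from 0 to 6 in OE3-1, 0 to 3 in OE9-1 and 0 to 4 in OE17-4. Around NHX2 there were 6 OE3-1 peaks, 0 OE9-1 peaks and 3 OE17-4 peaks, and around AVP1 2, 0 and 0 in the same order.

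A wider list of 62 other genes of sodium, potassium and proton transport and of SOS signalling was counted in the same way, and 30 had a peak in any line, or 48.4%, against 41% of all protein-coding genes. OE3-1 had peaks at 16 of them, OE9-1 at 8 and OE17-4 at 10, or 25.8%, 12.9% and 16.1%. The shares per line were close to the 22.5%, 12.2% and 13.9% of all genes. These genes too are long, with a median of 4100.5 bp. Of all genes over 4000 and up to 5000 bp, 56.4% had a peak in any line. By line it was 36.1% in OE3-1, 15.8% in OE9-1 and 19.5% in OE17-4. The shares of the 62 lay below all of these, and that difference was not tested. Of the 62, 6 lie where the OE3-1 list has no peaks, among them the potassium genes SKOR and KUP3, which had OE17-4 peaks, and KEA1 and KEA2, which had none. Of the 40 peaks at genes of the wider list, 21 had an FDR below their list's median, near the 50% that a median sets by definition. None of the 3 peaks at SOS1, HKT1 and AKT1 had one, and that difference was not tested.

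Among the relatives of SOS1 and NHX1, 3 of 5 other Na+/H+ exchanger genes had a peak, each in a different line, against 41% of all protein-coding genes and 58.9% of those in the length range of the 8 genes. NHX4 had an OE9-1 peak with 358 reads and an FDR of 0.000485% on chromosome 3 at 1932997 to 1933071. NHX5, an exchanger of the Golgi and endosomes, had an OE3-1 peak with 302 reads and an FDR of 0.11%. NHX6, its close partner in the same compartments, had an OE17-4 peak with 267 reads and an FDR of 0.16%. All 3 lay inside the gene span, and NHX3 and NHX8 had none. Each FDR was below those of the peaks at SOS1, HKT1 and AKT1, although FDRs come from separate lists.

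Around the SOS kinase module, 2 of 10 genes had a peak, against the same 41% of all genes. SOS4, which encodes a pyridoxal kinase, had a weak OE3-1 peak with 142 reads and an FDR of 4.82%. CIPK23, the kinase that activates AKT1, had an OE17-4 peak with 164 reads and an FDR of 0.01%, 302 bp outside its span on chromosome 1 at 10659226 to 10659312. The calcium sensor genes CBL1, CBL9 and CBL10, the phosphatase gene ABI2, and GI and MPK6 had no peak. CIPK23 and AKT1 thus had their peaks in different lines.

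Of 8 other voltage-gated potassium channel genes, 4 had a peak, near the 41% of all genes and the 58.9% of genes of like length. The pollen channel gene SPIK had peaks in OE3-1, at 10895487 to 10895516, and in OE17-4, at 10893988 to 10894133 on chromosome 2. The OE17-4 peak was 120 bp outside the span, in a row that the authors assigned to AT2G25590, and the peaks were 1354 bp apart. KAT2, a guard cell channel gene, had an OE9-1 peak with 343 reads at the very edge of its span, which the authors assigned to AT4G18282. KAT3, whose product joins AKT1 in root channels, had an OE9-1 peak of 21 bp, 446 bp outside its span, with an FDR of 3.82%. SKOR, the channel that loads potassium into the xylem, had an OE17-4 peak with 153 reads, in a row that the authors assigned to AT3G02840. AKT2 and GORK had none.

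Among potassium transporters of the HAK/KUP family, 6 of 11 had a peak, again near the 41% of all genes and the 58.9% of genes of like length. TRH1, needed for root hair growth, had one in each of 2 lines. On chromosome 4 its OE3-1 peak at 12323271 to 12323345 held 267 reads and its OE17-4 peak at 12322924 to 12323050 held 150 reads. The peaks lay 221 bp apart, which was the smallest gap between lines at any gene of the list. KUP2 had 2 OE3-1 peaks, KUP11 had 1 in OE3-1, KUP3 1 in OE17-4, and KUP7 and KUP10 1 each in OE9-1. Of the KUP2 peaks, 1 lay 11 bp outside the span, overlapped the neighbour ETG1 and had an FDR of 4.94%. HAK5, the high-affinity potassium transporter induced by starvation, had none. Of 11 potassium exchanger genes 4 had a peak, against 41% of all genes, KEA6 in OE3-1, KEA5 in OE9-1, and KEA3, of the thylakoid, and CHX20 in OE17-4. The KEA5 peak lay 131 bp outside the span, in a row that the authors assigned to PBS2. KCO1, the vacuolar channel, was the 1 of 6 two-pore channel genes with a peak, against 41% of all genes, and it had 2 OE3-1 peaks.

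Proton pumps power the exchangers, and 10 of 11 of their genes had a peak, 8 of them in OE3-1, 2 in OE9-1 and 2 in OE17-4. In OE3-1 that is 8 of 11 against 29.2% of the 13031 genes in the pumps' length range, and in any line 10 of 11 against 48.5%. The pumps' spans measured from 2075 to 6278 bp, with a median of 5809 bp, near the upper end of that range. Of all genes over 5000 and up to 6000 bp, 43.1% had an OE3-1 peak and 62.1% a peak in any line. The count fell without OE3-1 and at stricter limits, and so did the share of genes in the pumps' length range. Without OE3-1, 4 of 11 had a peak, DET3, VHA-A1, TUF and HA2, against 27.7% of genes in that length range. At the strictest Wilcoxon filter limit common to the lists, 0.000888, 2 of 11 kept an OE3-1 peak, VHP2 and HA3, against 12.1%. In the 50% of each list with the lowest FDR, 3 of 11 did, against 16%. These are counts with no test, and the pumps were grouped with earlier results of these data known. The plasma membrane H+-ATPase gene HA1 had an OE3-1 peak with 255 reads, HA3 had 2 OE3-1 peaks with 255 and 278 reads, and HA2 had 2 OE17-4 peaks with 95 and 72 reads, the weaker of them 911 bp outside its span.

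For the vacuolar H+-ATPase, the subunit genes VAB1, DET3, TUF, VHA-A2 and VHA-A3 had OE3-1 peaks. VHA-A1 had an OE9-1 peak 668 bp outside its span, in a row that the authors assigned to AT2G28510. VAB1 had 3 OE3-1 peaks, 1 of which overlapped the neighbour AT1G76020. DET3 also had an OE17-4 peak with 253 reads and an FDR of 0.000792% on chromosome 1 at 4374722 to 4374857, which overlapped the neighbour AT1G12830 as well and is assigned to it by the authors. TUF also had an OE9-1 peak, 832 bp outside its span, which overlapped the neighbour AT4G11160. VHP2, the relative of AVP1 (VP2 in the gene table), had an OE3-1 peak with 221 reads and an FDR of 0.83%, while AVP1 itself had none. The catalytic subunit gene VHA-A was the 1 of 11 with no peak.

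**Figure D5:**
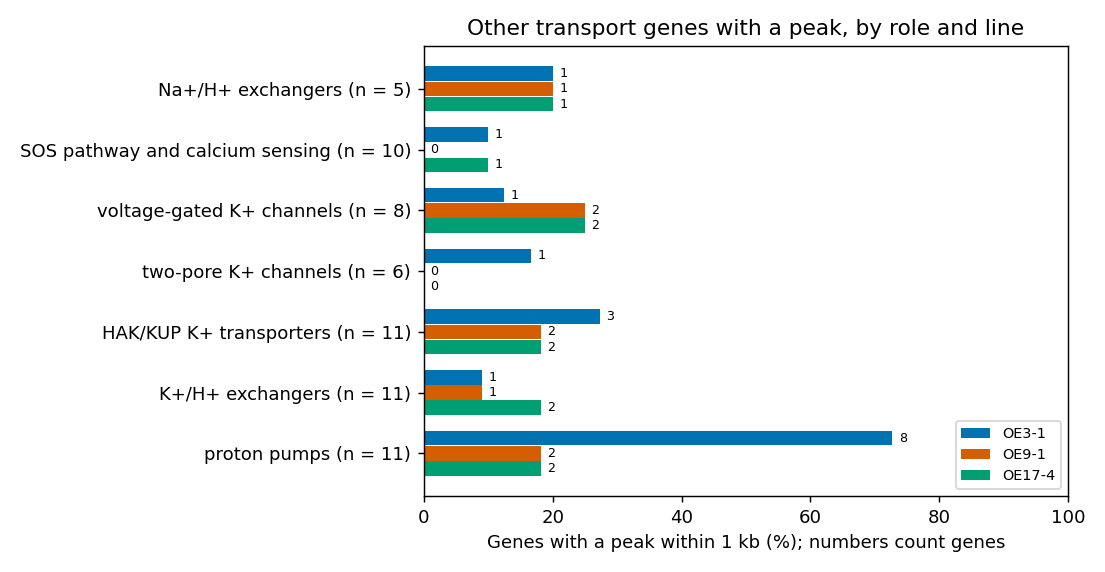
Percent of the 62 other transport genes with a peak within 1 kb, by role and line; the number at each bar counts genes. OE3-1 peaks reach 8 of 11 proton pump genes, and in every other role no line has more than 3 genes.

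Genes with peaks in 2 lines numbered 4 of 62, SPIK, TRH1, DET3 and TUF, or 6.45% against 7.2% of all protein-coding genes. Of genes in the length range of the 8 salt stress genes, 14.8% had peaks in at least 2 lines. At those 4 genes no peaks of different lines overlapped, and the share of such overlaps over all genes was not counted. None of the 8 salt stress genes had peaks in 2 lines, so none could show an overlap.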

How the data were processed

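Each ChIP library came with 1 peak list, called per line, and the build is TAIR 10 per the submitters' processing notes. Which aligner and peak caller made the lists, and how inputs entered, is not given in the sources used here. Reads inside each peak, all and by strand, were deposited by the authors as raw counts, per the file headers. The FDR in percent, the Wilcoxon filter p-value and the normalized strand difference, a fraction, are the authors' deposited values per the file headers. The normalized difference was not used further.

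Empty rows and 5 repeated regions were dropped. A set of 18 rows written with 3 dots was kept, and none lay at the 8 genes. Gene spans came from the RefSeq table of TAIR 10.1, whose coordinates are not printed and which holds no exons or strand. No sequences were used here. Overlap was at least 1 bp. Strand balance was tested per peak by the 2-sided exact binomial test with Benjamini-Hochberg adjustment over all peaks of the list (SciPy 1.17.1, Python 3.11.15). The code was checked on simulated binomial counts, which cannot show whether reads of real peaks meet the binomial assumption. Intervals are exact and cover counting error only. Ranks are within a list because depth is unknown.

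The 8 genes, the wider list and the alternatives were chosen with earlier results of these data known. The wider list was written with 64 loci, and 2 were dropped because their symbol was not in the table. The text names all 8 genes, and of the wider list every gene with a peak, beside a few without.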

Additional observations from a re-analysis of the deposited data

How the results depend on the processing

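Of 61 values under 12 alternative settings, 43 stayed within 1.5 times the reported count or on the same side of the threshold, and 17 counts moved. With 2 kb beside the span, 1 gene, NHX1, had an OE9-1 peak, against 17.8% of all genes. In the 50% of each list with the lowest FDR, 0 of the 8 genes had a peak in any line, 0 in OE3-1 and 0 in OE17-4, and 18 of the 62 wider genes had one, against 23.8% of all genes. At the common Wilcoxon limit of 0.000888, 1 of the 8 genes had a peak, SOS1, against 24% of all genes in any line. In OE3-1 it was 0 of the 8, against 9.41% of all genes. In any line 15 of the 62 had one, against the same 24%. That limit is the highest value in the OE17-4 list, so every OE17-4 peak passes it by construction, the one at SOS1 included. Leaving out a line gave 1 to 3 of the 8 genes and 18 to 23 of the 62, with the lowest without OE3-1. The share of all protein-coding genes also fell, to 24.5% without OE3-1, 32.7% without OE9-1 and 32.1% without OE17-4. Without a line, 4 to 9 of 11 proton pump genes had a peak. In any line, 4 had one at the Wilcoxon limit and 4 in the lowest 50% by FDR. In OE3-1 it was 2 and 3 in the same order of settings. Among genes in the pumps' length range, 27.7%, 40.1% and 39.1% had a peak without OE3-1, OE9-1 and OE17-4. At the Wilcoxon limit and in the lowest 50% the shares were 28.5% and 28.4% in any line. In OE3-1 they were 12.1% and 16%. All these pump counts were added after seeing the data. Counting above position 1051625 alone, an alternative added after seeing the data, gave 0 genes with an OE17-4 peak, by construction, since SOS1 is left out. Without adjustment over the list, 2 of 3 peaks had unequal strands, SOS1 joining at an unadjusted p of 0.0439 by exact binomial test. No paired analysis was possible because the inputs were not analysed here and only 1 group remains. Other causes were not tested.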

Other observations

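The lowest peak starts of the OE3-1 list lay between 1051625 on chromosome 1 and 1082707 on chromosome 4 over the 5 chromosomes, against 7767 to 79475 in OE9-1 and 3763 to 38188 in OE17-4. The peak-free stretch at the start of chromosome 3 ended at 1072705 and held 352 protein-coding genes, the most of any such stretch in the list. Those at the start of chromosomes 1 and 5 ended at 1051624 and 1068602, with 322 and 318 genes, and that of chromosome 2, with SOS1, ended at 1053022 with 252. On chromosome 2 the same stretch held 49 OE9-1 and 41 OE17-4 peaks. In all, 1522 protein-coding genes did not lie above position 1051625 with their 1 kb, and in OE3-1 these cannot be read as genes without a peak. The cause was not tested.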
